A study of Homo sapiens with 10 samples.

Results

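Transcripts annotated as targets of nonsense-mediated mRNA decay (NMD) were followed in EndoC-βH1, a line of human pancreatic beta cells that makes insulin. A transcript was included when its identifier carried the GENCODE 44 biotype nonsense_mediated_decay, its gene was protein coding, and its mean over the 10 libraries was at least 0.5 RPKM (reads per transcript length and library total). By this rule 5214 transcripts in 3328 genes were included, of 12952 such transcripts listed at any level and of 155130 transcripts listed in all. Just inside the threshold lay DNAJC24 ENST00000525511.1 at 0.5 RPKM and WDR17 ENST00000513261.1 at 0.5002 RPKM, and just outside it DERL2 ENST00000576551.1 at 0.4993 and RAD51AP1 ENST00000442992.2 at 0.4997. The control group comprised 5 libraries of cells given a control siRNA, and the knockdown group 5 libraries of cells given siSR#2, 1 siRNA against the splicing factor SRp55, also called SRSF6. The design counts 5 independent preparations of this 1 cell line, and the labels name no further allele, agent, dose or time. Polyadenylated RNA was sequenced, so decay intermediates without a poly(A) tail are outside the measurement.

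NMD is a surveillance pathway that removes mRNAs on which the ribosome stops well upstream of the last exon-exon junction. An exon junction complex left downstream of the stop codon recruits UPF and SMG proteins, and the transcript is then cut or decapped and degraded. The level of an NMD transcript therefore reflects both how often it is spliced and how fast it is removed. SR proteins and several other splicing factors use the pathway on their own genes: inclusion of a so-called poison exon brings an early stop codon and lowers the amount of productive mRNA.

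The stop codons of 10 members show the 4 ways in which an annotated NMD transcript differed from the canonical coding transcript of its gene. Each line gives the last 27 bases of the reading frame and, in capitals, the stop codon, from the GENCODE 44 transcript of the same identifier and the same length. In the following 3 the stop codon lay in an exon that the canonical transcript lacks.
SRSF6 ENST00000483871: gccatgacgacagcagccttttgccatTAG
SRSF3 ENST00000477442: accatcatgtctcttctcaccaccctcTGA
PIGF ENST00000420164: agaccatggcagaagcagatagcaaggTAA

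In the next 3 the stop codon lay within an exon of the canonical transcript, read in another frame or before the canonical stop.
FTH1 ENST00000532829: aagactgtgatgactgggagagcgggcTGA
B2M ENST00000349264: ctgaaaaagatgagtatgcctgccgtgTGA
RPLP0 ENST00000549098: tgtcccttcgcgggaaggctgtggtgcTGA

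In PDAP1 the stop codon lay in a stretch by which an exon was longer than in the canonical transcript.
PDAP1 ENST00000426447: aagcagaaggccagggttgtccatttcTGA

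In the last 3 the stop codon was the canonical one and the reading frame had the canonical number of codons, 119 in B2M, 129 in H2AJ and 67 in POLR2L. The junction that makes these transcripts NMD candidates lies after the normal end of the reading frame.
B2M ENST00000561424: aagatagttaagtgggatcgagacatgTAA
H2AJ ENST00000389078: acggagagtcagaagacgaagagcaaaTGA
POLR2L ENST00000534030: ctgctcaattatgcacccctggagaagTGA

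Of 4661 members that could be compared with a canonical transcript, 2682 (57.5%) had the stop in a canonical exon, 1224 (26.3%) in an added exon and 519 (11.1%) in an extended exon. The canonical stop was kept in 212 (4.55%), and in 24 the stop crossed an exon edge. Distance from stop codon to last junction is part of how the biotype is assigned: 5210 of 5211 members with both features had the stop at least 50 bases before that junction. The median distance was 300 bases, with an interquartile range of 157 to 607. Among 8560 coding transcripts of the same genes, 43 had such a distance. Members were shorter than the 11088 coding transcripts of the same genes, with a median of 899.5 against 1529.5 bases, and their reading frames had a median of 89 against 280 codons. In 95 members the canonical stop and the canonical number of codons were both present, so for these the annotated protein has its full length.

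Libraries held 61.9 to 189.8 M assigned reads (M, 1e6 reads), 115 ± 36.5 M (SD, n = 5) in the control group and 128 ± 36.1 M in the knockdown group, and 2.07 to 6.69 M of these lay on members. All 15 beta cell genes examined were at 0.5 RPKM or more, and so were 4 of 7 markers of other islet cells, 2 of 8 of acinar and duct cells and 3 of 9 of mesenchymal, endothelial and immune cells. The hormones GCG and PPY, the acinar enzyme PRSS1 and the leukocyte gene PTPRC were below 0.5 RPKM in every library. Summed over each list, the other islet markers were at 1203 to 2756 RPKM in control and 1480 to 2969 RPKM in knockdown libraries. Beta cell genes summed to 13406 to 25602 and 18887 to 28973 RPKM. Acinar and duct markers summed to 36.5 to 53.7 and 41.7 to 97.7 RPKM. The last list summed to 42.5 to 62.0 and 45.6 to 64.5 RPKM. The targeted gene SRSF6 had 98.2 ± 3.24 RPKM in control and 24.9 ± 3.78 RPKM in knockdown libraries, so the labels and the target level go together. No batch or date is given in the labels. The equal replicate numbers behaved as pairs at the gene level, and less clearly at shares. A fit with the replicate number as a block is given where it alters a call.

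Most members were minor transcripts of their genes. The median member had a mean of 1.57 RPKM and 32.3 reads in its lowest library, and held 6.52% of its gene's RPKM in control and 7.02% in knockdown libraries. The spread between libraries was of similar size: the median SD of a share was 4.02 percentage points in control and 4.11 in knockdown libraries. One member was found in 2145 genes, 2 in 752, 3 in 275 and 4 or more in 156, the most being 11 in VEZT, which encodes a component of adherens junctions. Summed over a gene's members, the share was under 1% in 73 genes, 1 to 5% in 623, 5 to 10% in 656, 10 to 25% in 1139, 25 to 50% in 640 and 50% or more in 197 (5.92%). RPKM divides by transcript length, and members are short: by estimated reads the median member held 4.00% of its gene in control libraries.

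The 8 members of highest level came from genes for abundant proteins and together held 11.1% of the summed RPKM of all members. PPIA ENST00000415933.1, from the gene for cyclophilin A, was at 584, 214, 242, 840 and 354 RPKM in control replicates 1 to 5 and at 867, 480, 472, 553 and 633 RPKM in knockdown libraries. The control libraries were spread widely around their mean, and the groups overlapped. FTH1 ENST00000532829.1, from the ferritin heavy chain gene, held 50.05% ± 3.35 (SD, n = 5) of its gene in control and 52.001% ± 4.22 in knockdown libraries. ITM2B ENST00000607866.1, from the gene for the membrane protein BRI2, held 47.9% ± 3.39 and 52.1% ± 2.62. RPL21 ENST00000483765.1, from a large-subunit ribosomal protein gene, held 25.8% ± 4.42 and 23.6% ± 2.52. CHGA ENST00000556076.1 reached a mean of 337 RPKM while holding 2.51% ± 1.94 and 3.48% ± 2.44 of its gene. Chromogranin A is a protein of secretory granules. None of these shares passed the test described below, whose adjusted p (limma) was 0.909 or more for each.

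RPLP0 stood apart among the abundant members because its gene level was lower after knockdown. The gene, which encodes a protein of the ribosomal stalk, fell by 1.07 ± 0.18 (SE) on the log2(RPKM + 0.5) scale relative to the median gene (limma, adjusted p = 0.017). Here and below, log2 differences are relative to the median gene or transcript. The p-values test the difference before this shift, which was 0.11 for genes and 0.12 for transcripts. Its member ENST00000549098.1 was at 288, 266, 293, 357 and 266 RPKM in control and at 186, 103, 78.7, 158 and 96.8 RPKM in knockdown libraries. All 5 knockdown values lay below the lowest control value. The share of this member was 73.8% ± 3.77 in control and 60.1% ± 15.2 in knockdown libraries (adjusted p of the share = 0.909), and its own level did not pass the threshold (adjusted p = 0.0977).

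Of 3314 host genes at 2 RPKM or more on average, 55 were dominated by members: these held 50% or more of the gene in every one of the 10 libraries. By estimated reads 36 of the 55 met this rule as well. The genes were not particularly abundant, with a median of 18.8 RPKM against 24.4 RPKM over all host genes, and 29 of them had 1 member. Apart from 4 readthrough genes, which join neighbouring genes in 1 transcript, the 10 with the highest level were B2M, SMARCE1, POLR2L, H2AJ, TMX2, FUNDC2, SELENOK, M6PR, POLR2E and PDAP1. The canonical coding transcript had a row in the files for 47 of the 55 genes (85.5%), against 3081 of 3328 host genes (92.6%). In 14 of the 55 the listed coding transcripts together held under 5% of the gene.

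B2M, the light chain of MHC class I, was the most abundant of them at a mean of 1377 RPKM. Its 3 members together held 57.0% ± 5.92 (SD, n = 5) in control and 56.9% ± 4.99 in knockdown libraries, and its listed coding transcripts 0.0672% on average. The canonical B2M transcript had no row, and ENST00000561424.1, shown above with its unaltered reading frame, held 45.6, 21.3, 27.7, 38.9 and 46.1% in control and 32.7, 31.5, 26.98, 39.3 and 37.5% in knockdown libraries. For H2AJ, an H2A histone variant gene, ENST00000389078.3 held 89.0% ± 2.71 and 92.6% ± 0.613, again with the canonical reading frame. POLR2L, a small subunit shared by the RNA polymerases, had 62.6% ± 2.46 and 64.4% ± 2.12 in ENST00000534030.1, also with its normal protein. H2AJ and POLR2L thus met the rule through 1 member with a full-length reading frame. B2M met it only with its other 2 members added, whose frames have 57 and 71 of 119 codons.

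Others among the 55 had short reading frames in their leading member. SMARCE1, a subunit of the SWI/SNF chromatin remodelling complex, had 69.8% ± 10.2 and 67.4% ± 5.96 of its RPKM in 2 members, the larger with 52 codons against 411 in the canonical transcript. FUNDC2, a mitochondrial outer membrane protein gene, had 73.0% ± 4.45 and 75.03% ± 1.70 in ENST00000456179.1, with 94 of 189 codons. SELENOK, which encodes a selenoprotein of the endoplasmic reticulum, had 73.5% ± 5.30 and 80.03% ± 3.36. M6PR, the cation-dependent mannose 6-phosphate receptor that carries enzymes to lysosomes, had 65.3% ± 6.96 and 58.3% ± 5.03. PDAP1 had 61.5% ± 4.74 and 67.0% ± 8.14, and by reads 35.8%, which is under the limit. None of the 55 genes passed a test of its summed share, which left out genes whose members held 100% in every library. By gene level 3 of the 55 were higher after knockdown and 0 were lower (limma), where 3.76% of all genes were higher and 1.25% lower, H2AJ by 0.77 ± 0.19 (adjusted p = 0.0295) and M6PR by 0.42 ± 0.12 (adjusted p = 0.0316) among them. Neither call was followed singly with 1 library left out.

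**Figure D1:**
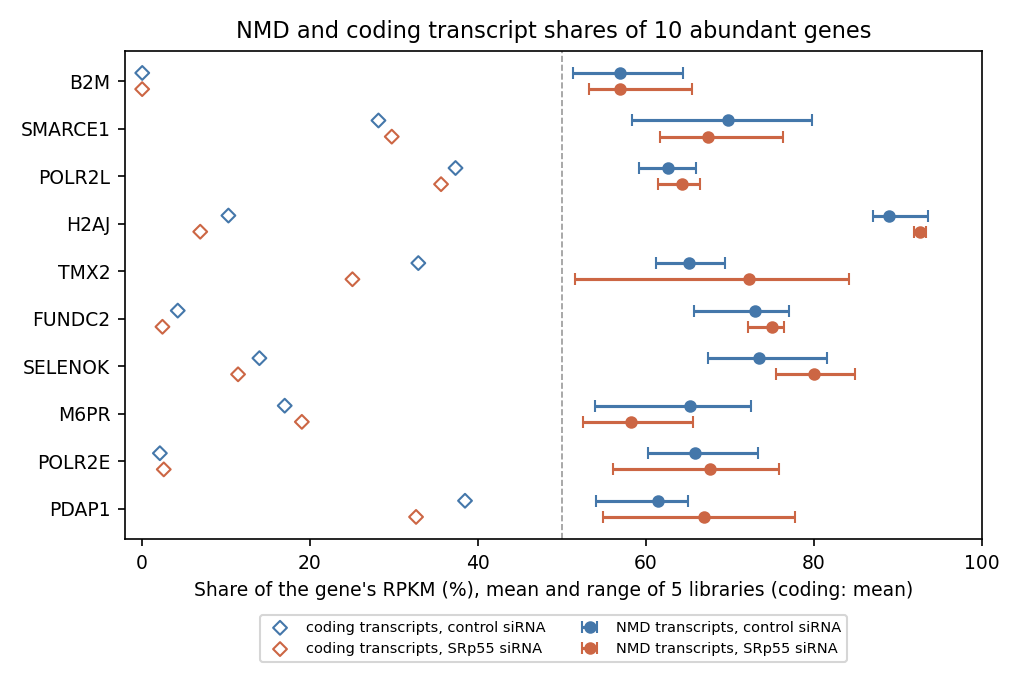
Share of each gene's RPKM (x axis, percent) in NMD transcripts (filled points, mean with the range of 5 libraries) and in coding transcripts (open diamonds, mean) for the 10 most abundant genes, readthrough genes left out, whose members held at least 50% in every library. The filled points of both groups lie right of the dashed 50% line, and the coding transcripts of B2M, POLR2E and FUNDC2 sit close to 0.

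The study asks how loss of SRp55 alters splicing in beta cells, and the first comparison is the part of coding gene expression held by NMD transcripts. Members held 5.59, 5.08, 5.05, 5.36 and 4.88% of all RPKM of protein-coding genes in control replicates 1 to 5, and 5.55, 5.64, 5.65, 5.44 and 5.10% in knockdown libraries. The means were 5.19% ± 0.284 (SD, n = 5) and 5.47% ± 0.224, higher in the knockdown library of 4 of 5 replicate numbers, and the groups overlapped. By estimated reads the means were 3.47% ± 0.192 and 3.66% ± 0.125. In the median host gene the summed share was 10.5% ± 0.627 and 11.3% ± 0.340, higher in 5 of 5 replicate numbers with overlapping groups. Coding transcripts held 74.1% ± 1.46 and 72.8% ± 0.627, and retained-intron transcripts 7.97% ± 0.614 and 8.56% ± 0.207. No test is given because these are summaries over chosen members.

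**Figure D2:**
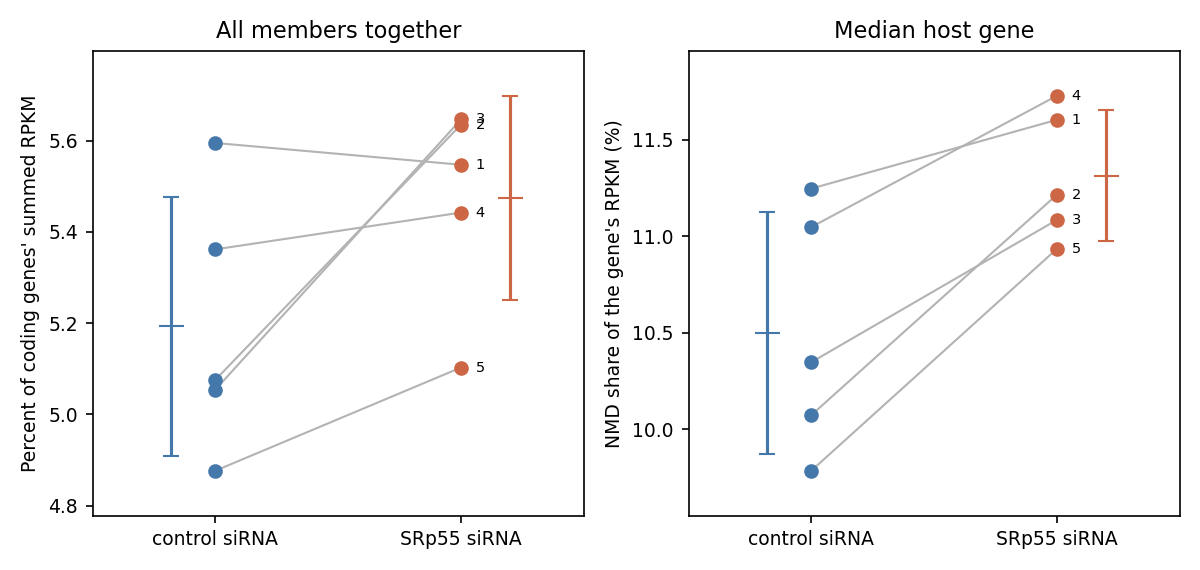
Left, percent of the RPKM of all protein-coding genes held by the 5214 NMD transcripts; right, summed NMD share of the median host gene (percent), with axes that do not start at 0. Points are libraries, grey lines join equal replicate numbers (given at right), and bars show mean and SD of 5; the line of replicate 1 descends in the left panel and all 5 lines ascend in the right panel.

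Shares were then tested transcript by transcript with limma on the arcsine of the square root of the share, over all 55392 transcripts of genes with at least 2 transcripts. At an adjusted p of 0.05, 1 of 5210 members passed, where 8 of all 55392 transcripts passed (0.0144%). At an unadjusted p of 0.05, 297 members (5.70%) passed, against 5.35% of all transcripts. The members' rates were thus close to those of all transcripts. The median difference in share was 0.22 percentage points, and 54.5% of members had a higher mean in knockdown libraries, compared with 54.8% of retained-intron transcripts and 47.4% of coding transcripts.

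The member that passed was TCF3 ENST00000592395.1 (GRCh37 chr19:1609291-1615797, minus strand). TCF3 encodes E12 and E47, basic helix-loop-helix transcription factors. The member held 81.8, 76.8, 78.1, 79.9 and 69.6% of the gene in control libraries, and 2.28, 2.93, 0, 14.3 and 13.6% in knockdown libraries. The groups did not overlap. The mean fell from 77.2% ± 4.69 to 6.62% ± 6.78 (SD, n = 5; limma, adjusted p = 0.00526), lower in 5 of 5 replicate numbers, while all coding transcripts of the gene together had 16.6% in control libraries. By estimated reads the share was 56.3% in control and 2.70% in knockdown libraries (adjusted p = 0.00381). With the replicate number as a block the adjusted p was 0.367, and no member passed (0.00542% of all transcripts). The level of TCF3 as a gene was 25.8 ± 9.20 RPKM in control and 17.5 ± 3.98 RPKM in knockdown libraries (adjusted p = 0.231).

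By level, on the log2(RPKM + 0.5) scale, 3 members passed, where 48 of 57818 transcripts passed (0.083%). SRSF6 and TCF3 were the 2 that fell. SYP ENST00000376303.2, from the gene for the vesicle protein synaptophysin, was listed at 0 in all 5 control libraries and at 1.04, 1.77, 1.16, 2.38 and 4.10 RPKM in knockdown libraries (limma, adjusted p = 0.0325). This transcript met the 0.5 RPKM filter only through the knockdown group, where it is high, so its call is a description. It held 1.04% ± 0.655 of SYP in knockdown libraries, and its share did not pass the test (adjusted p = 0.217). The level of the TCF3 member, 20.1 ± 7.96 against 1.26 ± 1.39 RPKM, had an adjusted p of 0.0452. With the replicate block the level calls of SYP and TCF3 were lost, at adjusted p = 0.167 and 0.162, and 1 member, SRSF6, still passed, where 0.00346% of all transcripts did. By estimated reads 6 members passed, against 0.349% of all transcripts. With 1 library left out, the SYP level call was lost in 8 of 10 fits and was kept only without knockdown replicate 1 or 5 (adjusted p 0.0379 to 0.102). The TCF3 level call was lost in 8 of 10 fits and was kept only without knockdown replicate 4 or 5 (adjusted p 0.0369 to 0.136).

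A second reading asked which shares differed in the same direction in all 5 replicate numbers, without a test. At shares the replicate numbers were weak pairs, since 6 of 10 libraries correlated best with their own number. This held for 403 members (7.74%), against 8.05% of all 55392 transcripts tested. Of these, 242 were higher and 161 lower in knockdown libraries, where the background was 4.11% higher and 3.93% lower. Groups did not overlap in 51 members (33 higher, 18 lower), 0.979% of members against 1.19% of all transcripts (0.608% higher and 0.585% lower). A difference of at least 5 percentage points in every replicate number was present in 26 members (0.499%), against 0.675%. These shares lie near or under the background, so they describe single transcripts and not the class.

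**Figure D3:**
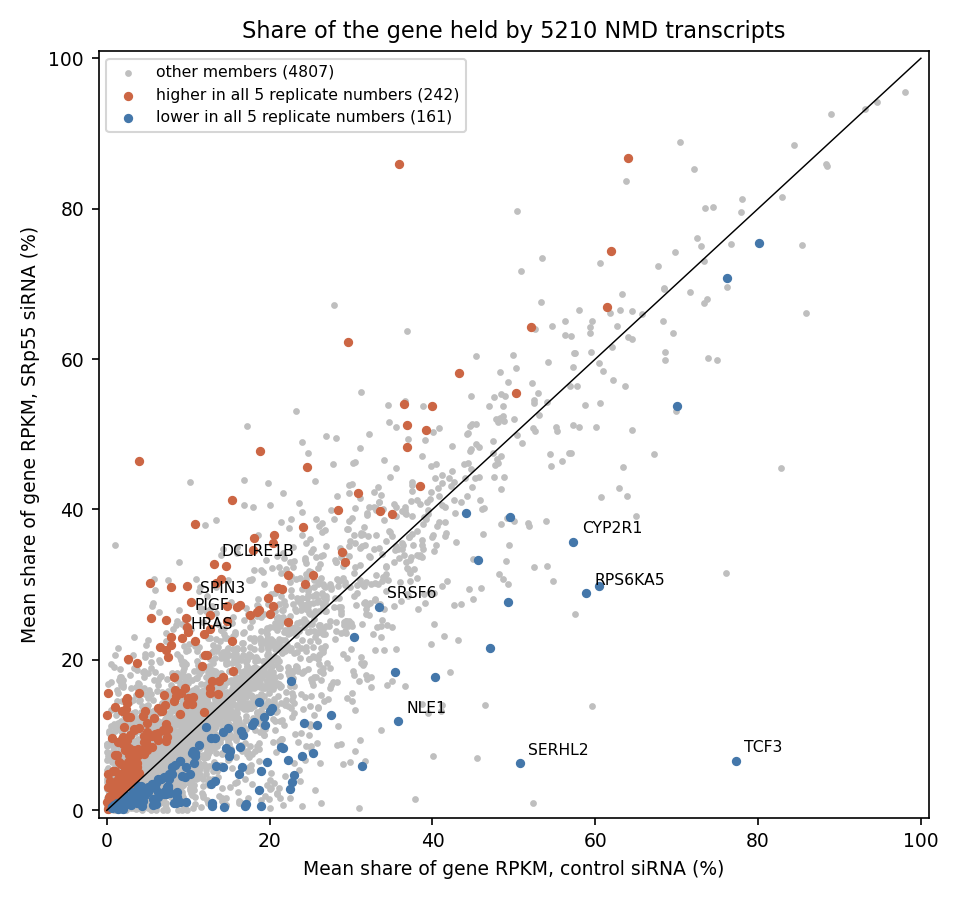
Mean share of the gene's RPKM in knockdown libraries (y axis, percent) against control libraries (x axis, percent) for 5210 NMD transcripts; each point is 1 transcript, coloured where it was higher (242) or lower (161) in all 5 replicate numbers, with the diagonal as a line. Labels mark SRSF6 and 9 members of large smallest-pair difference; TCF3 lies farthest below the diagonal.

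Ranked by the smallest difference over replicate numbers, the leading members with a higher share after knockdown included those of SPIN3, PIGF, HRAS and DCLRE1B. They were chosen for this pattern, so their values are a description. PIGF ENST00000420164.1, from a gene of glycosylphosphatidylinositol anchor synthesis, held 12.2, 7.25, 7.32, 15.7 and 6.18% in control and 21.6, 22.8, 25.6, 33.7 and 24.0% in knockdown libraries. Every knockdown value was above the highest control value. Its stop codon lies in an added exon 105 bases before the last junction.

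DCLRE1B encodes the Apollo nuclease that protects telomeres. Its member ENST00000466480.1 held 13.6, 14.4, 5.60, 17.1 and 14.8% in control and 21.5, 29.6, 45.2, 32.1 and 35.1% in knockdown libraries, without overlap. SPIN3, of the spindlin family of histone readers, had 10.4% ± 8.45 and 27.8% ± 4.77 in ENST00000478405.1, also without overlap. HRAS ENST00000493230.1, from the gene for a small GTPase of growth factor signalling, held 9.26% ± 10.2 and 22.9% ± 12.04; each replicate number was higher in the knockdown library, but replicate 3 was the highest library in both groups, at 24.5 and 43.0%. Of these 4, DCLRE1B was also higher as a gene, by 0.44 ± 0.10 on the log2 scale (limma, adjusted p = 0.0152).

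The 5 leading lower members were those of TCF3, SERHL2, RPS6KA5, CYP2R1 and NLE1. RPS6KA5 ENST00000554206.1, from the gene for the kinase MSK1, held 66.2, 53.6, 67.3, 39.3 and 67.9% in control and 48.6, 24.96, 19.7, 20.2 and 31.0% in knockdown libraries, and the groups overlapped through 1 library of each. CYP2R1 ENST00000534686.1, from the gene for a vitamin D 25-hydroxylase, had 57.3% ± 10.1 and 35.7% ± 15.4. NLE1, a ribosome assembly gene, had 35.8% ± 28.0 and 11.9% ± 8.47, with 83.1% in 1 control library. At a mean of 0.465 RPKM in knockdown libraries, its member met the 0.5 RPKM filter only through the control group. SERHL2, a serine hydrolase-like gene at 1.98 RPKM, had 50.7% ± 24.3 in control libraries and was listed at 0 in 4 of 5 knockdown libraries. The coding transcript ENST00000340239.4 of SERHL2 held 4.78% in control and 79.4% in knockdown libraries.

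**Figure D4:**
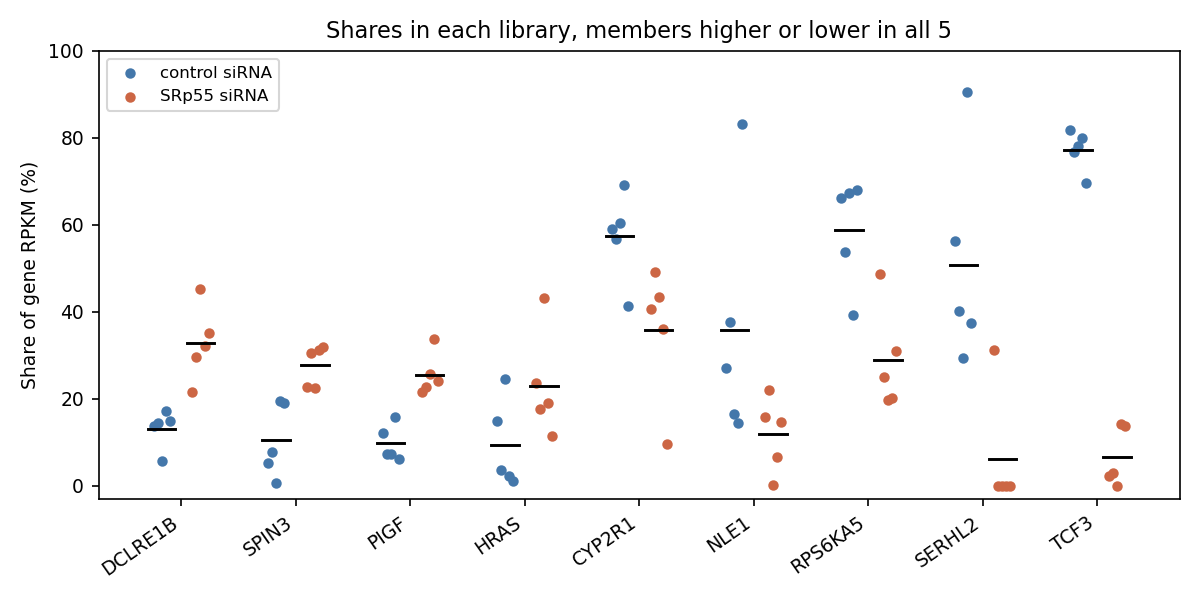
Share of the gene's RPKM (y axis, percent) in each library for 4 members higher and 5 lower in all 5 replicate numbers by the largest smallest-pair difference; points are libraries and black bars are means of 5. The groups of PIGF, DCLRE1B, SPIN3 and TCF3 do not overlap, and those of HRAS, CYP2R1, NLE1, RPS6KA5 and SERHL2 do.

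Further members without overlap were picked after their values were seen. SLC35B4, a nucleotide sugar transporter gene, had 8.09, 0, 0, 3.74 and 8.17% in ENST00000416907.1 in control and 71.5, 64.3, 73.2, 10.96 and 12.2% in knockdown libraries, so that 3 knockdown libraries stood far above the other 2. At a mean of 0.142 RPKM in control libraries, this member met the 0.5 RPKM filter only through the knockdown group. MRPS7, a mitochondrial ribosomal protein gene, had 9.85% ± 7.89 and 29.8% ± 8.50 in ENST00000583407.1. ICMT ENST00000489498.1, from the gene for the methyltransferase that finishes prenylated proteins, held 50.4, 51.3, 48.4, 50.3 and 50.7% in control and 54.2, 61.1, 53.9, 55.5 and 53.0% in knockdown libraries. At 40.9 RPKM it was the most abundant of the 51. On the lower side, PLD1, a phospholipase D gene, had 31.4% ± 19.4 and 5.83% ± 3.77 in ENST00000440204.1, RNFT1 had 49.3% ± 17.1 and 27.8% ± 5.22, and COA8 had 18.7% ± 8.58 and 2.76% ± 0.766 in ENST00000458117.1.

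The NMD transcript of the siRNA target itself is SRSF6 ENST00000483871.2 (GRCh37 chr20:42086568-42089974, plus strand), which carries the gene's poison exon. It was at 33.5, 33.1, 30.2, 32.0 and 35.3 RPKM in control and at 6.41, 5.47, 6.62, 8.04 and 6.92 RPKM in knockdown libraries. Its level fell by 2.34 ± 0.12 (SE) on the log2(RPKM + 0.5) scale relative to the median transcript (limma, adjusted p = 0.000102; 0.0460 with the replicate block). The whole gene fell by 2.08 ± 0.11 (adjusted p = 2.0e-05). As a share of SRSF6 the member held 33.7, 33.3, 32.7, 32.1 and 35.3% in control and 26.96, 23.4, 26.2, 25.9 and 33.0% in knockdown libraries. It was lower in 5 of 5 replicate numbers, the groups overlapped through knockdown replicate 5, and the test was not passed (adjusted p = 0.909).

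The list of SR proteins, TRA2 factors and their kinases and partners held 51 members in 27 host genes. By share 0 of the 51 passed the test, and 2 had an unadjusted p under 0.05, which 5.35% of all transcripts had. In all 5 replicate numbers 2 members were higher (CLK1 and SRRM2) and 3 lower (SRSF4, SRSF5 and SRSF6), together 5 of 51 against the 8.05% background. The median difference was 0.053 percentage points, against 0.22 for all members and 0.035 for all transcripts. Members held 11.6% ± 1.17 of the list's RPKM in control and 10.1% ± 1.36 in knockdown libraries, higher in 2 of 5 replicate numbers. These sums include SRSF6, the siRNA target, whose gene and member both fell, and the share without it was not computed. As genes, 34 of the list were tested, of which 1 rose (SRSF4, by 0.38 ± 0.11; adjusted p = 0.0371) and 1 fell (SRSF6, the siRNA target), where 5.02% of all genes passed.

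The shares of NMD transcripts of the other SR genes overlapped between the groups. SRSF3 ENST00000477442.2 held 15.5, 14.9, 10.8, 16.8 and 7.74% in control and 30.9, 14.9, 11.8, 15.6 and 17.7% in knockdown libraries. Knockdown replicates 1 and 5 lay above the highest control library and the other libraries overlapped. SRSF7, another SR gene, had 19.7% ± 4.36 and 15.96% ± 3.23 in 3 members. TRA2B, a partner of SR proteins, had 12.04% ± 5.32 and 10.2% ± 2.31 in ENST00000456380.1. SRSF1 had 20.2% ± 6.34 and 22.8% ± 5.76 in ENST00000584668.1, whose reading frame ends at the canonical stop. SRSF5 ENST00000555547.1 held 5.98, 7.30, 5.64, 3.61 and 7.62% in control and 3.95, 2.28, 3.45, 2.91 and 5.78% in knockdown libraries, lower in each replicate number with overlapping groups. SRSF4 ENST00000605204.1 was at 5.03% ± 2.27 and 2.49% ± 1.95.

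Kinases and partners gave the widest spreads. SRPK2, which phosphorylates SR proteins, had 63.8% ± 12.03 of its RPKM in 2 members in control and 37.5% ± 31.1 in knockdown libraries. Its member ENST00000465112.1 was at 70.3, 65.1, 0.501, 31.4 and 48.5% in control and at 0, 1.395, 0, 50.8 and 61.1% in knockdown libraries, so it was near 0 in some libraries of both groups. CLK4, a dual-specificity kinase of the same pathway, had 19.5% ± 18.8 and 36.3% ± 24.3. BCLAF1 ENST00000527613.1, from a gene for an RNA-binding protein linked to apoptosis, held 7.56, 22.8, 21.3, 12.6 and 23.3% in control and 4.14, 2.82, 7.05, 13.0 and 2.10% in knockdown libraries (adjusted p = 0.909). LUC7L3, a U1 snRNP-associated gene with 6 members, had 28.6% ± 5.80 and 17.1% ± 5.22 in all 6 together.

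**Figure D5:**
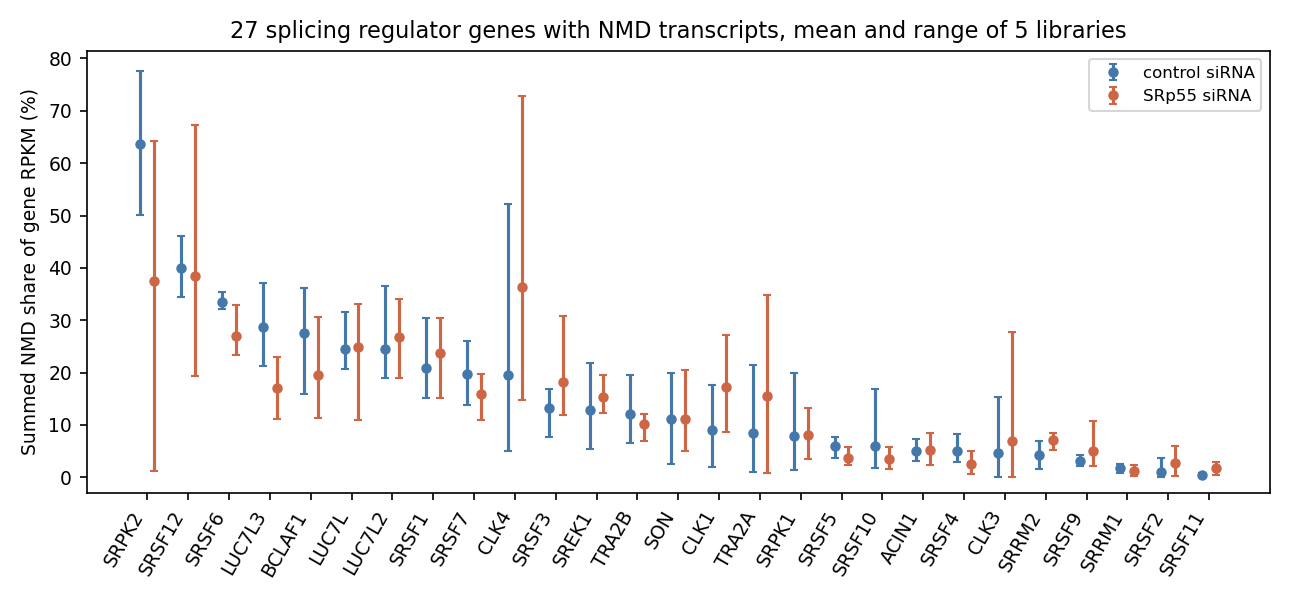
Summed NMD share of the gene's RPKM (y axis, percent) for 27 splicing regulator genes, ordered by the control mean; points are means and bars span the lowest to the highest of 5 libraries. SRSF6 has narrow bars at 32.1 to 35.3% in control and 23.4 to 33.0% in knockdown libraries, whereas the knockdown bars of SRPK2 (1.23 to 64.2%), SRSF12 (19.4 to 67.3%) and CLK4 (14.7 to 72.9%) are wide.

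Few genes of the decay pathway itself passed the gene level test. Of 29 tested genes for UPF and SMG proteins, exon junction complex subunits, release factors and decapping and exonuclease factors, 1 rose and 0 fell (limma, adjusted p under 0.05), where 5.02% of all 13630 genes passed in either direction, 3.76% higher and 1.25% lower. PNRC2, which links UPF1 to decapping, was at 69.7 ± 5.49 RPKM in control and 97.9 ± 11.2 RPKM in knockdown libraries. Relative to the median gene the difference was 0.37 ± 0.11 on the log2 scale (limma, adjusted p = 0.0381 for the unshifted difference). This call was lost in 8 of 10 fits with 1 library left out and was kept without control replicate 4 or knockdown replicate 5 (adjusted p 0.0132 to 0.0915). With the replicate block 3 genes rose, PNRC2, FMR1 and GNL2, against 13.1% of all genes. UPF1, the helicase at the centre of the pathway, was at 53.3 ± 6.46 and 51.3 ± 9.24 RPKM (adjusted p = 0.827), UPF2 at 5.46 ± 0.379 and 5.39 ± 0.645 RPKM, and the kinase SMG1 at 11.7 ± 1.80 and 11.6 ± 2.23 RPKM.

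These genes carried 13 members in 8 host genes, none of which moved in the same direction in all 5 replicate numbers. MAGOHB, an exon junction complex subunit gene, had 20.6% ± 4.57 and 24.0% ± 9.83 in 3 members. DHX34, a helicase of the pathway, had 13.4% ± 2.20 and 13.3% ± 3.88, and the decapping enzyme gene DCP2 13.3% ± 5.95 and 12.9% ± 7.54.

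In the other lists 0 members passed the test of shares, and the members named from them were picked after their values were seen. Ribosomal protein genes, with 43 members in 28 hosts, had 4.41% ± 0.413 of their RPKM in members in control and 3.58% ± 0.310 in knockdown libraries, lower in 5 of 5 replicate numbers without overlap. Of the 43 members taken singly, 3 were higher and 0 lower in all 5 replicate numbers, among them RPLP0 ENST00000551258.1. Without RPLP0 the values were 3.63% ± 0.320 and 3.28% ± 0.320, the groups overlapped, and 1 replicate number was higher. Lists of 3 other kinds were higher in 5 of 5 replicate numbers with overlapping groups. These were the hnRNP and RNA-binding genes at 8.25% ± 0.497 and 9.13% ± 0.801, the translation and tRNA synthetase genes at 4.87% ± 0.914 and 5.80% ± 0.673, and the ER stress genes at 4.12% ± 0.767 and 5.21% ± 0.720.

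Among 17 members of ER stress genes, 4 were higher and 0 lower in all 5 replicate numbers, where 4.11% of all transcripts were higher and 3.93% lower. Of the higher ones, those of EDEM1 and DERL2 were at 0 and 0.231 RPKM in control libraries and met the 0.5 RPKM filter only through the knockdown group. Entry by that route favours a higher share, so the count describes these members only. EDEM1 ENST00000434243.1, from a gene of glycoprotein disposal from the endoplasmic reticulum, was listed at 0 in every control library and held 16.03, 14.8, 18.7, 2.29 and 11.3% in knockdown libraries (limma on shares, adjusted p = 0.194). The gene rose by 0.44 ± 0.11 on the log2 scale (limma, adjusted p = 0.0201). DERL2 ENST00000573637.1, from a gene of the same disposal route, was between 0.405 and 0.809% in control and at 23.1, 0.886, 13.3, 9.68 and 0.854% in knockdown libraries, just clear of the controls in 2 of the 5. PDIA3, a disulfide isomerase gene, had 25.4% ± 5.99 and 31.2% ± 3.63 in ENST00000455250.1 at a mean of 149 RPKM, and MBTPS1, a protease that activates ATF6, had 2.55% ± 4.11 and 6.42% ± 5.30.

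Respiratory chain genes had 51 members, 5 of them higher and 2 lower in all 5 replicate numbers, against the same 4.11 and 3.93% of all transcripts. ATP5MG ENST00000529790.1, from a gene for a membrane subunit of ATP synthase, held 7.54, 14.2, 7.42, 1.60 and 5.60% in control and 12.9, 26.95, 37.6, 27.8 and 21.3% in knockdown libraries. NDUFS7, a complex I subunit gene, had 17.1% ± 16.1 and 0.889% ± 0.402 in ENST00000546172.2, with control libraries between 1.24 and 39.4%. At a mean of 0.22 RPKM in knockdown libraries, this member met the 0.5 RPKM filter only through the control group. Core spliceosome genes had 52 members, 4 higher and 1 lower against that background. DDX23, a helicase of the U5 snRNP, had 18.8% ± 6.03 and 26.7% ± 7.44 in ENST00000552369.1, and SNRNP70, the U1-70K gene, had 10.8% ± 3.09 and 7.19% ± 2.34 in ENST00000401730.1.

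Apoptosis and JNK pathway genes had 43 members, of which 3 were higher and 1 lower in all 5 replicate numbers. Over all transcripts the shares were 4.11 and 3.93%, and they serve as background for the other lists named here too. DFFA, which encodes the inhibitor of the caspase-activated nuclease, had 20.9, 10.1, 34.8, 22.2 and 14.5% in ENST00000476658.1 in control and 26.0, 47.0, 51.1, 39.5 and 19.8% in knockdown libraries. MAP2K4, a kinase that activates JNK, had 3.76% ± 2.13 in control, and in knockdown libraries 4.21, 2.65, 3.42, 42.5 and 45.1%, so that replicates 4 and 5 stood far above the other 3. MAP3K13, a kinase upstream of JNK, had 13.2% ± 7.23 and 3.93% ± 1.35. Beta cell and secretion genes had 28 members in 17 hosts, 2 of them higher, of which ABCC8 ENST00000526168.1, from the gene for the sulfonylurea receptor SUR1, held 15.7, 13.0, 13.0, 11.5 and 9.94% in control and 16.9, 18.5, 14.1, 12.5 and 15.7% in knockdown libraries. In translation genes 2 members were higher and 2 lower. HNRNPH1 and TARDBP were the 2 higher members of the hnRNP list, at 0.370% ± 0.204 and 0.946% ± 0.280 and at 0.652% ± 0.380 and 1.46% ± 0.637. The HNRNPH1 member, at a mean of 0.434 RPKM in control libraries, met the 0.5 RPKM filter only through the knockdown group.

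Host genes as a whole passed the gene level test about as often as other genes. Of 3328 host genes 150 passed (4.51%), against 684 of 13630 genes (5.02%), with 115 higher and 35 lower. The log2 differences are relative to the median tested gene, which was 0.11 higher in knockdown libraries. The p-values and the counts higher and lower refer to the differences before that shift. With median-of-ratios scaling 114 host genes were higher and 98 lower (6.74% of all genes passed), and by estimated reads 249 were higher and 318 lower (17.2% of all genes). With the replicate block 332 were higher and 86 lower, where 13.1% of all genes passed. With 1 library left out, the count of host genes ranged from 50 (without control replicate 2) to 273 (without control replicate 4). Of the genes named as passing by gene level, only PNRC2 was followed singly through such fits. The 150 genes were picked by sums that include their members' own RPKM, and their other transcripts were not counted in this way. These genes held 214 members. Of the 214, 28 (13.1%) had a share that differed in one direction in all 5 replicate numbers and 7 (3.27%) had no overlap between groups. All transcripts had 8.05 and 1.19%, but most are not from genes picked so, and the rates describe these host genes only. PABPC4, a poly(A)-binding protein gene picked after its values were seen, was one such host. The gene rose by 0.88 ± 0.25 (limma, adjusted p = 0.0457). Its member ENST00000470443.1 held 45.9, 54.0, 41.5, 12.7 and 22.8% in control and 28.7, 7.70, 24.5, 11.2 and 19.8% in knockdown libraries. The groups overlapped and the share did not pass (limma, adjusted p = 0.909). The member itself was at 12.6 RPKM in control and 14.5 RPKM in knockdown libraries.

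Members were also grouped by where their stop codon lay. The median control share was 6.59% for members with the stop in a canonical exon, 6.05% for an added exon, 6.06% for an extended exon and 12.5% for the canonical stop. A difference in one direction in all 5 replicate numbers was present in 7.87, 7.19, 8.09 and 6.60% of these classes, all near the 8.05% of all transcripts. Members with the stop under 100 bases before the last junction had a median share difference of 0.65 percentage points, those at 100 to 300 bases 0.41, those at 300 to 1000 bases 0.11 and those beyond 1000 bases -0.28. These bands also differ in length, with median member lengths of 701, 718.5, 1053 and 2759.5 bases, and the part of length in this order was not tested. Of 4680 members of unaltered length, 648 (13.8%) had neither a base nor a junction of their own among the listed transcripts of their gene. Their median SD between control libraries was 4.13 percentage points, against 4.05 for members with a base or junction of their own. Their median control share was lower, 5.49% against 6.83%. Relative to the share the spread was wider, with a median coefficient of variation of 79.3% against 59.9%.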

How the data were processed

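Column 9 of each of the 10 deposited files holds, as named attributes, the reads the authors assigned to each transcript, its length and its RPKM. TopHat and the build GRCh37 (hg19) are named in the submitters' processing notes; the program that assigned reads and the annotation release: not given in the sources used here. The reads are estimates that need not be whole, so no count test was run. Biotype, reading frame and sequence came from GENCODE 44 by transcript ID (143368 of 155130 IDs matched, 92.4%), and coordinates are those of the files; 4680 members (89.8%) had equal length in both. The files list transcripts without exons, so the planned check of exon lengths compared transcript lengths.

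The share of a member is its RPKM over the summed RPKM of its gene. The 0.5 RPKM filter used the mean over both groups, so a member low in 1 group could pass it through the other. Shares (arcsine of the square root) and log2(RPKM + 0.5) were fitted with limma 3.58.1 in R 4.3.3 (trend and robust variance, Benjamini-Hochberg over all features), with the 5 libraries of each group. The fits were tested on simulated data. SD is over 5 libraries, SE from limma. Log2 differences are relative to the median tested gene or transcript, and their p-values test the difference before that shift. Preparations are called independent in the series design; p-values measure the spread between them. The members and gene lists were chosen with earlier results of these data known. Named members were the SRSF6 transcript, passing members, the 8 most abundant, the 10 most abundant dominated genes, the splicing and decay lists, and the 5 members on each side with the largest smallest difference over the 5 replicate numbers; members named from other lists, and the further members without overlap, were picked after their values were seen. Some named members are not reported here. Equal replicate numbers pair the libraries at gene level: their deviations from the group means correlated at 0.128 to 0.414, and every library correlated best with its own number (10 of 10). At shares the pairing was weak: the range was 0.0152 to 0.0794 for equal and -0.0882 to 0.0789 for different numbers. Only 6 of 10 libraries correlated best with their own number there. Alternatives were estimated reads, scaling, pseudocount, filter, share scale, test, length match, replicate block and leaving out each library. Exact tests were not given for summed shares.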

Additional observations from a re-analysis of the deposited data

Results flagged for a closer look

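In 23 of 246 groups of 5 libraries, 1 library lay far from the other 4: its gap to the nearest was more than 0.71 of the whole range. Chance flags about 1 in 20 groups, and members of 1 gene share reads. All values are shares of the gene's RPKM, each with the nearest other library.

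Among control libraries, replicate 4 was the highest for CLK1 ENST00000409403.2 (13.6%, next 1.92%), CLK4 ENST00000522136.1 (46.3%, next 13.9%), LUC7L2 ENST00000456182.1 (36.5%, next 23.5%), SRSF2 ENST00000585202.1 (3.69%, next 0.793%) and EIF4G1 ENST00000442406.1 (8.54%, next 2.46%). Control replicate 1 was the highest for SRSF10 ENST00000473858.1 (15.2%, next 0.893%) and LUC7L3 ENST00000504065.1 (10.2%, next 9.45%). Control replicate 5 was the highest for RUVBL2 ENST00000221413.6 (6.27%, next 1.69%) and for TRA2A ENST00000538367.1 (2.11%, the others listed at 0). Control replicate 3 was the highest for RUVBL2 ENST00000596247.1 (12.9%, next 3.45%).

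Among knockdown libraries, replicate 1 was the highest for SERHL2 ENST00000477564.1 (31.2%, the others listed at 0), SRSF10 ENST00000473858.1 (2.02%, next 0.365%), TMX2 ENST00000525035.1 (21.8%, next 1.25%) and TRA2A ENST00000538367.1 (33.8%, next 2.70%). It was the lowest for FUNDC2 ENST00000456179.1 (72.1%, next 75.2%). Knockdown replicate 3 was the highest for CLK3 ENST00000569063.1 (27.7%, next 2.62%), LUC7L3 ENST00000507200.1 (7.18%, next 0.270%), SRPK2 ENST00000465072.1 (64.2%, next 5.09%) and RUVBL2 ENST00000596247.1 (17.5%, next 4.04%). Knockdown replicate 4 was the highest for LUC7L3 ENST00000504563.2 (3.24%, next 2.34%), RNPS1 ENST00000564311.1 (1.61%, next 0.562%) and RUVBL2 ENST00000221413.6 (18.1%, next 1.497%), and the lowest for EIF4G1 ENST00000442406.1 (0.515%, next 0.791%).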

How the results depend on the processing

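The difference in total NMD share, 0.282 percentage points, lay between 0.189 and 0.383 under every alternative run for it. The count of members passing the test of shares, 1, was 0 with the replicate block and 0 with members of equal length alone (TCF3 differs in length). It was 1 to 2 with 1 library left out (2 without knockdown replicate 2 or 4). With diffSplice 17 members passed, where 0.248% of all transcripts did. Exact permutation tests at an unadjusted p under 0.05 gave 294 members (5.64%), against 6.05% of all transcripts. By level, 3 members became 6 by estimated reads, 1 with the replicate block, 1 without a filter on low values and 1 to 6 with 1 library left out (1 without control replicate 1, 2, 3 or 5, 6 without knockdown replicate 4 or 5). Host genes called, 150, became 567 by estimated reads, 418 with the replicate block and 50 to 273 with 1 library left out; only without knockdown replicate 1 or 5 was it within 1.5 times. Decay pathway genes called, 1, became 4 by estimated reads, 3 with the replicate block and 0 to 3 with 1 library left out. Members with one direction in all 5 replicate numbers, 403, became 173 at a mean of at least 2 RPKM, 84 for at least 2 and 26 for at least 5 percentage points in each, and 653 to 797 with a replicate number left out, where fewer pairs must concur. Dominated genes, 55, became 148 by the mean of each group and 9 at 80% in every library, and 55 to 62 with 1 library left out. The test of a gene's summed share, added after seeing the data, called 1 gene, TCF3, among host genes, and 0 with the replicate block. For members named singly, 2200 alternative values stayed the same, 12 moved, 3 passed newly and 23 no longer passed. Where the main value did not pass, the same means not passing and within 1 SD of it, and direction was not checked. Where it passed, the same means passing again in the same direction, and 0 of these values reversed. The causes were not tested. The replicate block ended the TCF3 share and the TCF3 and SYP level calls, and among the named members no other. Members with few reads limit these shares: the median member had 32.3 reads in its lowest library. Stop codon position, read from annotation, has no alternative.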
